A study of Mus musculus with 4 samples.

Results

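The transcription factors described here are 10 genes that act in early T cells and innate lymphoid cells: Tcf7, Lef1, Bcl11b, Tox, Tox2, Satb1, Zbtb7b, Zbtb16, Tbx21 and Eomes. They were chosen by gene name, and all of their probes were read: 16 of the 39429 probes and 10 of the 31660 genes on the array. The samples were preproB cells, an early B lineage stage, sorted from mouse bone marrow as lineage-negative cells that carried B220 and CD43 and lacked BP1 and CD24. Each of the 4 samples was hybridised in 1 colour (Cy3) to an Agilent whole-genome array, with 2 samples in each group.

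All 4 samples came from C57BL/6 mice with loxP sites on both alleles of the enhancer that lies 37 kb from Cebpa, which encodes C/EBPα, a myeloid transcription factor. Mice of both groups had been given 3 doses of pIpC, a double-stranded RNA that induces interferon, 5 weeks before the marrow was taken. Control samples (Enh(f/f)) had no Cre. EnhDel samples (Enh(f/f);Mx1-Cre) also carried Mx1-Cre, whose promoter responds to interferon and is active in many cell types besides B lineage cells. No sample carried Cre without the loxP sites, so the effects of Cre itself and of the lost enhancer cannot be told apart. By the labels, control replicate 1 came from a 26-week-old female, whereas 24-week-old males gave the remaining samples. The labels do not say whether animals were pooled, so p-values reflect the spread among these 4 samples alone, which may be technical.

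T cell commitment begins when Notch signals reach a lymphoid progenitor in the thymus. Tcf7, which encodes TCF-1, is an early target of Notch and opens the T cell programme together with Gata3, and Bcl11b then closes off other fates, natural killer (NK) and myeloid ones among them. Lef1 is the close relative of Tcf7. Both proteins bind the same short DNA motif and recruit β-catenin or Groucho/TLE proteins, and Lef1 is also active in early B lineage cells. Tox, Tox2, Zbtb16, Tbx21 and Eomes take part in innate lymphoid, NK or late T cell fates, while Satb1 and Zbtb7b act in chromatin organisation and in the CD4 T cell choice.

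To show what the array read, a pair of probes that lie within zinc finger sequence are printed 5′ to 3′. The Bcl11b probe is the gene's brighter one, on chr12:109153847-109153906 (build mm9, minus strand). The Zbtb7b probe is 1 of 3 for its gene, on chr3:89184324-89184383 (mm9, minus strand). Capitals run from the first to the last base of a pair of cysteine codons of a C2H2 zinc finger, the fold with which both proteins bind DNA.
Bcl11b probe: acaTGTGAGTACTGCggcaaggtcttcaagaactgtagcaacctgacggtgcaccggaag
Zbtb7b probe: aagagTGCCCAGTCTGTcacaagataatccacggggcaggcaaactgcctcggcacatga

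Promoter windows are printed for Tcf7, Lef1 and Bcl11b because the first and the last were higher and Lef1 lower on the EnhDel arrays. Each window runs from 250 bases before to 50 bases after a start, and is the most upstream entry for the gene in the RefSeq promoter table used here (build GRCm38.p6). They lie on chr11:52282965-52283264 (minus strand), chr3:131110047-131110346 (plus strand) and chr12:108003365-108003664 (minus strand). Capitals mark a match, on either strand, to the TCF/LEF motif TCAAAG, the C/EBP motif TTNCNNAA or the RUNX motif TGTGGT.
Tcf7 window: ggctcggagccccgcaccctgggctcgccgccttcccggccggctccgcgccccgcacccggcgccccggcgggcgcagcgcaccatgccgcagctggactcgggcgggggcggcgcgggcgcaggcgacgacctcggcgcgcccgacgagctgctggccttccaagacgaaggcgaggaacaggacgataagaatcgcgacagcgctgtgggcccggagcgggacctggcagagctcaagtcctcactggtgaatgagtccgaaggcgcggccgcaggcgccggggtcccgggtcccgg
Lef1 window: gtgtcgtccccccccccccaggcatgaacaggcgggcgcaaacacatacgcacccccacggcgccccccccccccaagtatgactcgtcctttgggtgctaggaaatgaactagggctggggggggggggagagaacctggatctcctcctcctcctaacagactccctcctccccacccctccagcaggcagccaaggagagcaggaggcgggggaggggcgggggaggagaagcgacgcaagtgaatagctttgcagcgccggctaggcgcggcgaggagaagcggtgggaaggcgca
Bcl11b window: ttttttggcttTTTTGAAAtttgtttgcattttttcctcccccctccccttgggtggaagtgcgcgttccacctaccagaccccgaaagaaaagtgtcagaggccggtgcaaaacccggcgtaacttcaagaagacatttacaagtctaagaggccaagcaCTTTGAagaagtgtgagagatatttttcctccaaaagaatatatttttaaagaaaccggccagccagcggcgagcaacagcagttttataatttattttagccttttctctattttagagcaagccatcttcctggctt

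The Bcl11b window held 1 C/EBP match, from base 12, and 1 TCF/LEF match, from base 162. No match to these letters lay in the Tcf7 and Lef1 windows. The Tcf7 window holds an ATG at base 86 whose frame runs without a stop for 71 codons to the end of the window, so it may be coding sequence in large part, and its G and C share and lack of a match may not be those of a promoter. Windows for 8 of the 10 genes were matched by symbol, all but Tox and Zbtb16. The TCF/LEF motif was in 1 of these 8, against 16% of 32851 promoter windows. The C/EBP motif was in 2 of them, Bcl11b and Satb1, against 40.7%, and the RUNX motif in 0, against 16.8%. The Bcl11b window had 43% G and C, the Lef1 window 67.3% and the Tcf7 window 76.3%. A match is a description of the letters and not of a bound site.

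Between 59.6% and 64.9% of probes per array were well above background, and the lowest such signal was 12.2 to 14.4. The number of arrays limits the precision. At the Cebpa probe, signal was 1270.7 and 927.1 in the controls, against 125.1 and 286.7 in the EnhDel samples, so the groups did not overlap in the direction of the labels. The log2 difference was -2.42 ± 0.45 (SE, n = 2 per group), with limma's adjusted p (Benjamini-Hochberg) at 0.248. This difference was -1.87 without EnhDel replicate 1 and -2.97 without EnhDel replicate 2. The probe reads the transcript, not the enhancer. The spread within the EnhDel pair exceeded that within the control pair, with an SD over genes of the log2 differences of 0.611 against 0.333. Sex-linked genes went against the labels of 2 samples. The Y-linked Ddx3y was well above background on all 4 arrays, at 3115.7 on the one labelled female, 3473.8 and 3624.4 on control replicate 2 and EnhDel replicate 1, and 1559.7 on EnhDel replicate 2. Xist was well above background on EnhDel replicate 2 alone, labelled male, at 597.3 against 4 to 5.3. Results are therefore also given without single arrays. Of the defining genes of the sort, Ptprc (which encodes B220) and Spn (CD43) were well above background on all 4 arrays and Enpep (BP1) on none, while Cd24a, the gene of the absent marker CD24, was well above background on all 4.

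Of the 10 factors, Tcf7, Bcl11b, Tox, Zbtb16 and Eomes were higher on both EnhDel arrays than on both control arrays, and Lef1 was lower. The size of these 6 differences was at least 2-fold. Tbx21 and Tox2 overlapped between the groups, as did Satb1 and the brightest Zbtb7b probe. No factor passed an adjusted p of 0.05 in limma's fit over 19391 genes, and 0% of those genes did. In bulk samples, fewer or more cells of a type and less or more RNA per cell cannot be told apart.

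Counts over all genes give the scale for these. Non-overlap with higher EnhDel values held for 5 of the 10 factors and for 27.2% of all genes tested, and non-overlap with lower values for 1 factor and 16.6% of genes. With a difference of at least 2-fold as well, the counts stayed at 5 and 1, against 2.97% and 2.89% of genes. An unadjusted p under 0.05 was also reached by 5 factors in the higher direction and 1 in the lower, against 6.83% and 4.16%. The factors' median log2 difference was 0.996, beside 0.06 over all genes. Against the control mean it was 1.22 for EnhDel replicate 1 and 0.78 for EnhDel replicate 2. The factors were chosen with results of these data known, so these shares describe them and test nothing.

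**Figure D1:**
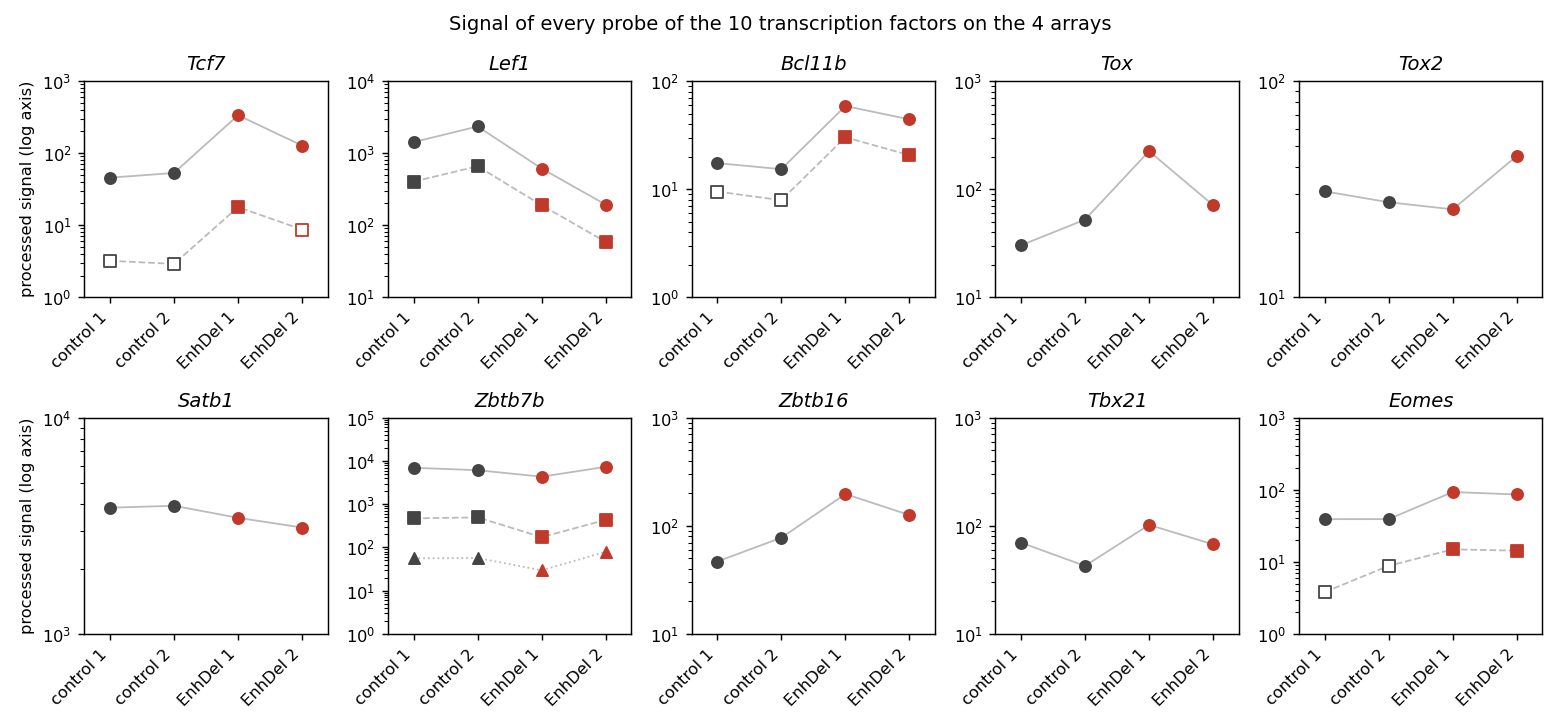
Processed signal (log axis) of all 16 probes of the 10 factors on the 4 arrays, with control arrays in grey and EnhDel arrays in red, 1 array per point. Open symbols are probes not well above background, and marker shapes separate the probes of a gene; Tcf7 runs from 45.6 and 53 on the control arrays to 335.3 and 127.2 on the EnhDel arrays, and Lef1 from 1420.6 and 2341.6 to 610.1 and 192.2.

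Tcf7 signal at its brighter probe (chr11:52066114-52066173 in mm9) was 45.6 and 53 in the controls, against 335.3 and 127.2 in the EnhDel samples. Both control arrays were low and close together, both EnhDel arrays were higher, and EnhDel replicate 1 was the highest by far. This was a log2 difference of 2.17 ± 0.53 (SE, n = 2 per group), a 4.50-fold higher level (95% interval 1.68 to 12.05). By limma the unadjusted p was 0.0124 and the adjusted p (Benjamini-Hochberg) 0.324. The other Tcf7 probe (chr11:52066738-52066797) read 3.2 and 2.9 in the controls, against 17.8 and 8.7 in the EnhDel samples. It was well above background on EnhDel replicate 1 alone, so it was not tested and gives no fold, although both its EnhDel values lay above both control values and EnhDel replicate 1 was again the highest. The Tcf7 difference was 1.42 without EnhDel replicate 1, 1.27 after normexp background correction with repaired spots and 0.85 with the authors' deposited values.

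Lef1, the relative of Tcf7, differed in the opposite direction. Its brighter probe (chr3:130926200-130926259) had a signal of 1420.6 and 2341.6 in the controls, against 610.1 and 192.2 in the EnhDel samples. The EnhDel samples were both under the lower control, and EnhDel replicate 2 was the lowest. Lef1 differed by -2.31 ± 0.64 on the log2 scale (SE, n = 2 per group), which is 4.97-fold lower (95% interval 1.498 to 16.5), at an adjusted p of 0.367 by limma. The second Lef1 probe lies across an intron, with its ends at 130907851 and 130926012 on chromosome 3 in mm9. It read 402.3 and 655.8 in the controls, against 188.9 and 58.5 in the EnhDel samples, a log2 difference of -2.19 ± 0.65. All 4 arrays thus stood in the same order at both Lef1 probes. Without EnhDel replicate 2 the difference at the brighter probe was -1.43.

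The array with the larger Tcf7 difference was not the one with the larger Lef1 difference. Against the control mean, EnhDel replicate 1 stood at 2.92 for Tcf7 and -1.43 for Lef1 on the log2 scale. EnhDel replicate 2 stood at 1.42 for Tcf7 and -3.20 for Lef1. With 2 arrays no relation between the genes can be tested.

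Bcl11b, the zinc finger factor of T cell commitment, had a signal of 17.4 and 15.3 in the controls, against 58.7 and 44.2 in the EnhDel samples at the probe printed above. The control arrays were just over the lowest measurable signal, and the EnhDel arrays were both higher and close to each other. Bcl11b differed by 1.74 ± 0.25 on the log2 scale (SE, n = 2 per group), or 3.34-fold (95% interval 2.08 to 5.36), at an unadjusted p of 0.00171 and an adjusted p of 0.202 by limma. The second probe (chr12:109148932-109148991) read 9.5 and 7.9 in the controls, against 30.2 and 20.6 in the EnhDel samples. It was not well above background on either control array and was tested through the EnhDel arrays alone. Its level was at least 1.90-fold higher on those arrays, a bound set by the lowest signal well above background on the control arrays. The adjusted p of 0.243 by limma over all probes rests on control values that were not measured. The Bcl11b difference was 0.65 ± 0.16 after normexp background correction with an offset of 50 and repaired spots, and 0.45 with the authors' deposited values. Without the repair of 6 spots on EnhDel replicate 1 it was 1.51 ± 0.78. In that unrepaired setting the median over all genes was 0.188, against 0.06 in the main fit.

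**Figure D2:**
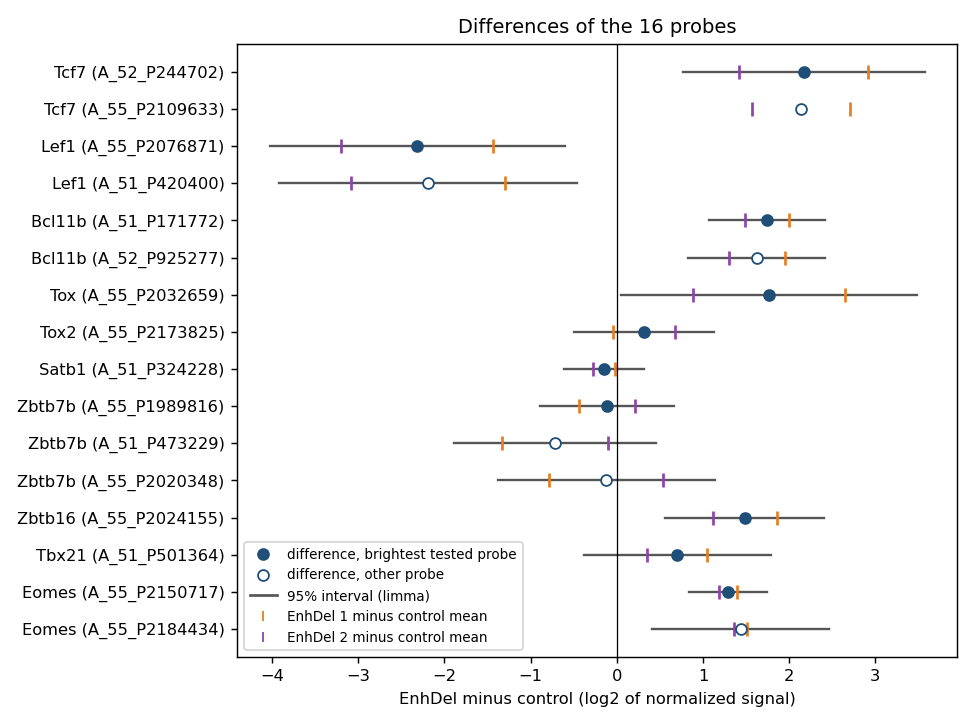
Log2 difference (EnhDel minus control, x axis) of each of the 16 probes, with limma's 95% interval for the 15 tested, filled circles for the probe that stands for its gene, and ticks for each EnhDel array against the control mean. The intervals of Tcf7, Bcl11b, Tox, Zbtb16 and Eomes lie above 0 and those of Lef1 below, before adjustment for the number of genes. The intervals of the dimmer Bcl11b and Eomes probes rest on control values that were not well above background.

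Tox encodes an HMG-box factor needed for CD4 T cell, NK cell and innate lymphoid development. Its probe (chr4:6614755-6614814) had a signal of 30.2 and 52.2 in the controls, against 224.4 and 71 in the EnhDel samples. EnhDel replicate 1 stood far above the other 3 arrays, and EnhDel replicate 2 was only a little above control replicate 2. Tox differed by 1.77 ± 0.65 on the log2 scale (SE, n = 2 per group), at an adjusted p of 0.450 by limma. It was 0.89 without EnhDel replicate 1 and 1.05 with the authors' deposited values. Tox2, its paralog, read 30.9 and 27.5 in the controls, against 25.5 and 45 in the EnhDel samples (chr2:163101725-163101784). The Tox2 groups overlapped, with a log2 difference of 0.31 ± 0.30 and a 95% interval of -0.50 to 1.13, at an adjusted p of 0.749 by limma. The sign for Tox2 turned to -0.04 without EnhDel replicate 2.

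Zbtb16 encodes PLZF, the factor of innate-like T cells and innate lymphoid precursors. It had a signal of 46.7 and 77.6 in the controls, against 196.7 and 125.8 in the EnhDel samples (chr9:48462419-48462478). Both EnhDel arrays lay above both control arrays. Zbtb16 differed by 1.48 ± 0.35 on the log2 scale (SE, n = 2 per group), or 2.80-fold (95% interval 1.46 to 5.35), at an adjusted p of 0.313 by limma. It was 0.93 after repaired normexp correction.

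Eomes and Tbx21 encode the paired T-box factors of NK cells and of cytotoxic T cells. The brighter Eomes probe (chr9:118394425-118394484) read 39.1 and 39.2 in the controls, against 93.1 and 86.1 in the EnhDel samples. The arrays of each group nearly coincided, and the groups were well apart. Eomes differed by 1.29 ± 0.17 on the log2 scale (SE, n = 2 per group), or 2.45-fold (95% interval 1.78 to 3.36). Eomes had the smallest unadjusted p of the 10 factors, 0.00113, and an adjusted p of 0.194 by limma. Its second probe (chr9:118395189-118395248) read 3.8 and 8.8 in the controls, against 14.9 and 14.3 in the EnhDel samples. It was well above background on neither control array, so the level was at least 1.11-fold higher. The adjusted p of 0.35 by limma over all probes rests on control values that were not measured. The Eomes difference was 0.69 after repaired normexp correction and 0.35 with the authors' deposited values.

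Tbx21, which encodes T-bet, read 70 and 42.6 in the controls, against 102 and 67.4 in the EnhDel samples (chr11:96959417-96959476). EnhDel replicate 2 lay below control replicate 1 in signal, so the groups overlapped. The log2 difference was 0.70 ± 0.41 (SE, n = 2 per group), with a 95% interval of -0.40 to 1.80 and an adjusted p of 0.611 by limma. The interval includes 0 as well as the size seen for Eomes, and whether the T-box genes differed from each other was not tested.

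Satb1, a chromatin organiser of lymphoid cells, read 3835.8 and 3915.3 in the controls, against 3443.6 and 3105.7 in the EnhDel samples (chr17:51879137-51879196). Once each array was scaled, the groups overlapped, and the log2 difference was -0.15 ± 0.17 (SE, n = 2 per group). Its 95% interval of -0.61 to 0.32 lies within a 2-fold change in either direction, and the adjusted p by limma was 0.794.

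Zbtb7b encodes ThPOK, which directs thymocytes to the CD4 fate. Its brightest probe (chr3:89181569-89181628) read 6964.9 and 6114.9 in the controls, against 4328.5 and 7324.1 in the EnhDel samples. EnhDel replicate 1 was the lowest array and EnhDel replicate 2 the highest, and the log2 difference was -0.11 ± 0.29 (adjusted p 0.901 by limma). The probe printed above read 56 and 57 in the controls, against 29.6 and 79.4 in the EnhDel samples, in the same pattern, with a difference of -0.12. The third, at chr3:89183230-89183289, read 470.9 and 495.4 in the controls, against 173 and 435.7 in the EnhDel samples, a difference of -0.72 with no overlap. EnhDel replicate 1 was thus lowest at all 3 Zbtb7b probes, while the probes disagreed on EnhDel replicate 2. The sign at the brightest probe turned to 0.22 without EnhDel replicate 1 and to 0.06 without control replicate 1.

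**Figure D3:**
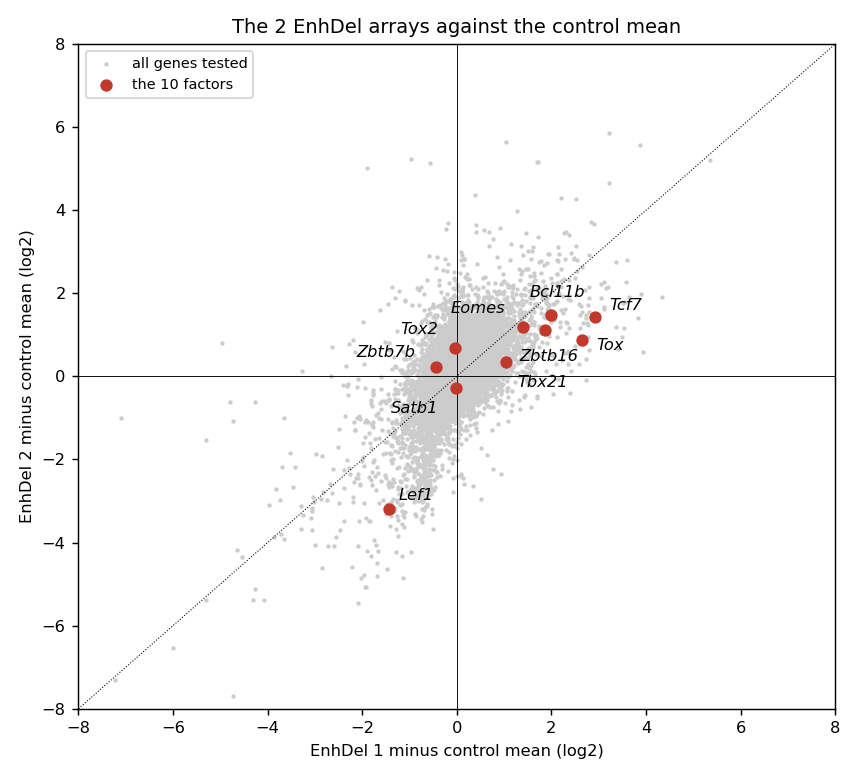
Log2 level on EnhDel replicate 1 (x axis) and EnhDel replicate 2 (y axis), each minus the control mean, for all 19391 genes tested (grey) and the 10 factors (red); the dotted line marks equal values. Tcf7 (2.92 and 1.42) and Tox (2.65 and 0.89) lie below the line, Lef1 (-1.43 and -3.20) lies far below 0 on both axes, and Eomes (1.40 and 1.19) lies near the line.

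The EnhDel arrays did not carry these differences equally. Tcf7, Bcl11b, Tox, Zbtb16, Tbx21 and Eomes were all further from the control mean on EnhDel replicate 1 than on EnhDel replicate 2. Bcl11b stood at 2.00 and 1.49, Zbtb16 at 1.86 and 1.11, and Tbx21 at 1.05 and 0.35. Without EnhDel replicate 1, limma's adjusted p passed 0.05 for 4 factors: Tcf7 at 1.42 (adjusted p 0.0241), Bcl11b at 1.49 (0.0327), Eomes at 1.19 (0.031) and Lef1 at -3.20 (0.0236). In that fit 3209 genes passed, so many genes did so along with them. Without EnhDel replicate 2, Tcf7 passed, at 2.92 with an adjusted p of 0.0293 by limma, among 93 genes. In these fits the lone EnhDel array is assumed to vary like the control arrays, which lay closer together than the EnhDel arrays did.

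The authors' deposited log2 values gave the same sign for all 10 factors and smaller sizes for most. In the authors' deposited table Tcf7 stood at 6 and 5.9 in the controls, against 7.2 and 6.4 in the EnhDel samples. Bcl11b stood there at 5.9 and 5.8 and at 6.5 and 6.1, and Lef1 at 9.7 and 10.2 and at 8.7 and 7.2. The authors' deposited table gave differences of 1.05 for Tox, 1 for Zbtb16 and 0.35 for Eomes. For genes with several probes, the deposited values followed the mean of the probes' log2 median signals, with a correlation across 6411 genes of 0.998 on each array, against 0.948 to 0.953 for the brightest probe. These median signals hold the background, and the mean includes the dim probes of Tcf7, Bcl11b and Eomes.

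**Figure D4:**
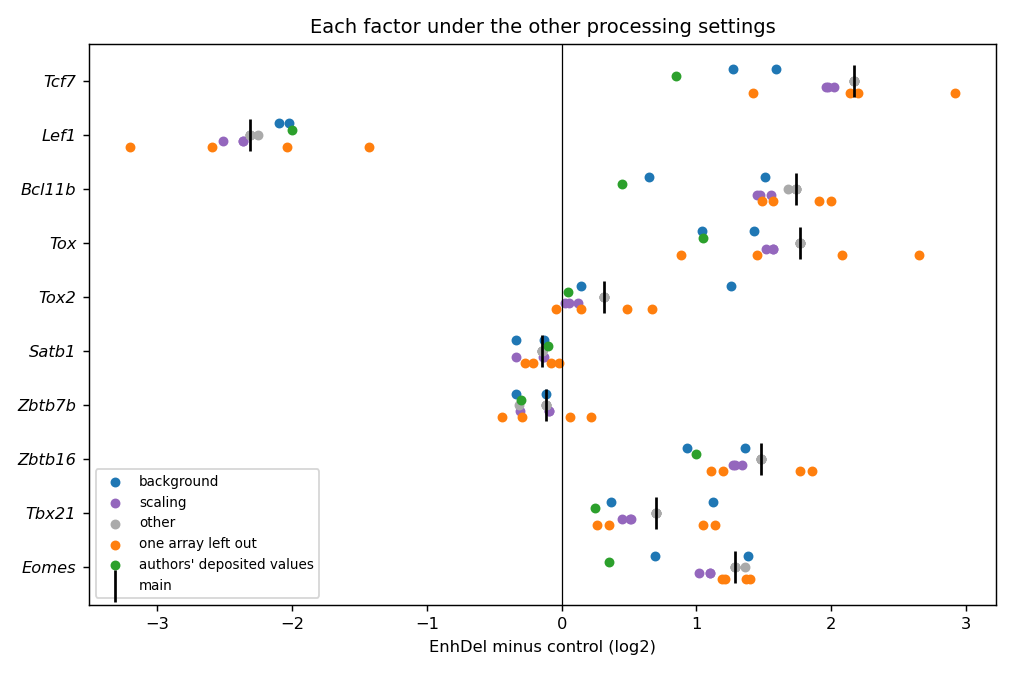
Log2 difference (EnhDel minus control, x axis) of each factor under the main setting (black bar) and the other processing settings (coloured points, grouped in the legend). Tcf7, Bcl11b, Tox, Zbtb16, Tbx21 and Eomes stay above 0 and Lef1 and Satb1 below 0 under each setting shown, while Tox2 and Zbtb7b change sign when some single arrays are left out. The other filters, the replicate block and the other variance model could not move these differences.

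Genes related to these factors or working with them were read from lists. Of the paralogs, 5 of 9 could be tested. Tcf7l2, the relative of Tcf7 that was well above background, read 497.6 and 573.3 in the controls, against 600.6 and 673.7 in the EnhDel samples, with a log2 difference of 0.35 ± 0.15. Bcl11a, the B lineage and dendritic cell relative of Bcl11b, read 25170 and 26978 and then 21441 and 20348, with a difference of -0.22 ± 0.16. Tox4 differed by -0.41 and Zbtb7a by 0.16. The adjusted p of the 5 ranged from 0.484 to 0.814 in limma.

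Among TCF/LEF cofactors and Wnt targets, 0 of the 14 tested genes passed the adjusted threshold, and the median log2 difference was -0.07. Without overlap, 0 were higher and 4 lower, against 27.2% and 16.6% of all genes tested. Myc, a growth regulator and classical Wnt target, read 186.3 and 232.8 in the controls, against 96.8 and 98.4 in the EnhDel samples, a difference of -0.99 ± 0.15 (adjusted p 0.211 by limma). Ctnnbip1, an inhibitor of β-catenin, differed by -0.61, the corepressor Tle1 by -0.73 and the coactivator Bcl9 by -0.47. Axin2, a direct Wnt target, was well above background on no array. Subunits of NuRD, the chromatin complex that Bcl11b recruits, gave a median of -0.03 over 11 tested genes. Rbbp4 at -0.41, Mta3 at -0.41, Hdac2 at -0.22 and Rbbp7 at -0.27 had the smallest unadjusted p of that list, all of them above 0.05.

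Other regulators of early T cells numbered 20 tested genes, with a median of -0.10. Of these, 3 were higher and 7 lower without overlap, against 27.2% and 16.6% of all genes tested. Gata3, the partner of TCF-1 in T cell specification, read 18.7 and 32 in the controls, against 151.3 and 77.5 in the EnhDel samples. Like Tcf7 it was highest on EnhDel replicate 1, and its log2 difference was 2.25 ± 0.44 (SE, n = 2 per group; adjusted p 0.263 by limma). The Notch receptor gene Notch3 differed by 0.98 ± 0.19, at 2132.1 and 2086.4 against 4163.2 and 3601.9. Runx1 differed by -0.86 ± 0.15 and Gfi1, a repressor active in B, T and myeloid precursors, by -1.13 ± 0.30. Regulators of innate lymphoid cells (13 tested) had a median of 0.03, with 4 higher and 1 lower without overlap, beside the same 27.2% and 16.6%. Il1rl1, the IL-33 receptor of type 2 innate lymphoid cells, differed by 1.90 ± 0.26, while Nfil3, needed for NK and innate lymphoid precursors, differed by -1.35 ± 0.31. None of the genes named from these lists passed limma's adjusted threshold.

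Markers of other cells are given beside the factors. The sort took lineage-negative cells, a gate meant to remove cells that carry the surface markers of mature lineages. Its antibodies are not named in the labels. Of 18 T cell markers, 17 or 18 were well above background on each array. Their summed signal was 24600 and 24450 in the controls, against 32850 and 41520 in the EnhDel samples. Cd4 alone gave 8914.4 and 8801 of these sums in the controls and 14430 and 28070 in the EnhDel samples. Without Cd4, left out after its values were seen, the sums were 15687 and 15647 in the controls, against 18417 and 13455 in the EnhDel samples. This sum was highest on EnhDel replicate 1 and lowest on EnhDel replicate 2, but the markers did not share that order. Thy1 (4527.5 and 2420.6 in the EnhDel samples) and Lck (2899.8 and 1175.8) were higher on EnhDel replicate 1. Cd3d (246.4 and 300.2), Cd3e (595.8 and 739.6), Cd3g and Cd247 (47.8 and 74.8) were higher on EnhDel replicate 2. Without overlap, 9 of the 17 tested were higher and 1 lower, against 27.2% and 16.6% of all genes tested. The median log2 difference was 0.44. Cd3g, a chain of the T cell receptor complex, read 60.6 and 67.7 in the controls, against 118.1 and 129.2 in the EnhDel samples, a difference of 1.05 ± 0.14. Cd3d differed by 1.16 and Cd4 by 1.28, while Cd6, the gene lower without overlap, differed by -0.68. Of the 17 tested, the difference was above 0 for 11 and below 0 for 6, and no T cell marker passed limma's adjusted threshold.

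NK cell markers well above background numbered 12 and 11 of 18 on the control arrays and 13 on each EnhDel array. Their summed signal ranged from 24840 to 25580 on the control arrays and from 23860 to 24300 on the EnhDel arrays. Klrd1 and Cd244a gave most of these sums. Without them, again chosen after their values were seen, the sums were 3146 and 2414 in the controls, against 4555 and 4839 in the EnhDel samples. The direction of the summed signal thus depended on which genes were left out, and Nkg7 and Ccl5 gave most of the remainder. Of the 13 tested, 6 were higher and 1 lower without overlap, against 27.2% and 16.6% of all genes tested, with a median of 0.51. Gzmb, the cytotoxic protease granzyme B, was not well above background on the control arrays. At 68.3 and 237.1 in the EnhDel samples it was at least 9.70-fold higher (adjusted p 0.194 by limma, resting on unmeasured control values). The chemokine gene Xcl1 differed by 2.30 ± 0.25 and the cytokine receptor gene Il2rb by 1.81 ± 0.49, while the receptor gene Klrk1 differed by -1.25 ± 0.17. Ncr1, which marks NK cells, was well above background on EnhDel replicate 2 alone, at 13.2, and Ifng, Itga2, Cd160 and Il18rap on no array. The part of T and NK cells in the differences of Tcf7, Bcl11b, Tox, Zbtb16 and Eomes was not tested.

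Plasmacytoid dendritic cell (pDC) genes were measured throughout: all 12 were well above background on all 4 arrays, with a median difference of 0.06. B lineage and gate genes had a median of -0.93 over 12 tested genes. Without overlap, 10 were lower and 0 higher, against 16.6% and 27.2% of all genes tested. The B lineage and gate genes were lowest where Lef1 was. Their medians were -0.77 on EnhDel replicate 1 and -1.36 on EnhDel replicate 2, against -1.43 and -3.20 for Lef1. Ebf1, the B lineage specification factor, read 391.8 and 658.5 in the controls, against 145.6 and 59.5 in the EnhDel samples, a difference of -2.35 ± 0.53 (adjusted p 0.304 by limma). Igll1, a surrogate light chain gene, differed by -3.41 and Cd79a by -0.80. Pax5, which completes B lineage commitment, was well above background on control replicate 2 alone. The part of B lineage cells in the Lef1 difference was not tested.

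Among myeloid and erythroid markers the 10 tested genes had a median of -1.05, and the medians by array were -1.645 on EnhDel replicate 1 and -0.31 on EnhDel replicate 2. The list held genes of opposite sign: the monocyte receptor gene Csf1r differed by -1.64 and the globin gene Hbb-bt by 2.62. Lyz2, a macrophage and granulocyte lysozyme, was at least 7.70-fold lower on the EnhDel arrays (adjusted p 0.194 by limma). Klf1, the erythroid factor, was at least 2.05-fold higher there (0.218 by limma). Lyz2 was measured in the controls alone and Klf1 in the EnhDel samples alone, so both adjusted p rest partly on unmeasured values. The part of myeloid and erythroid cells in the differences of the 10 factors was not tested either.

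**Figure D5:**
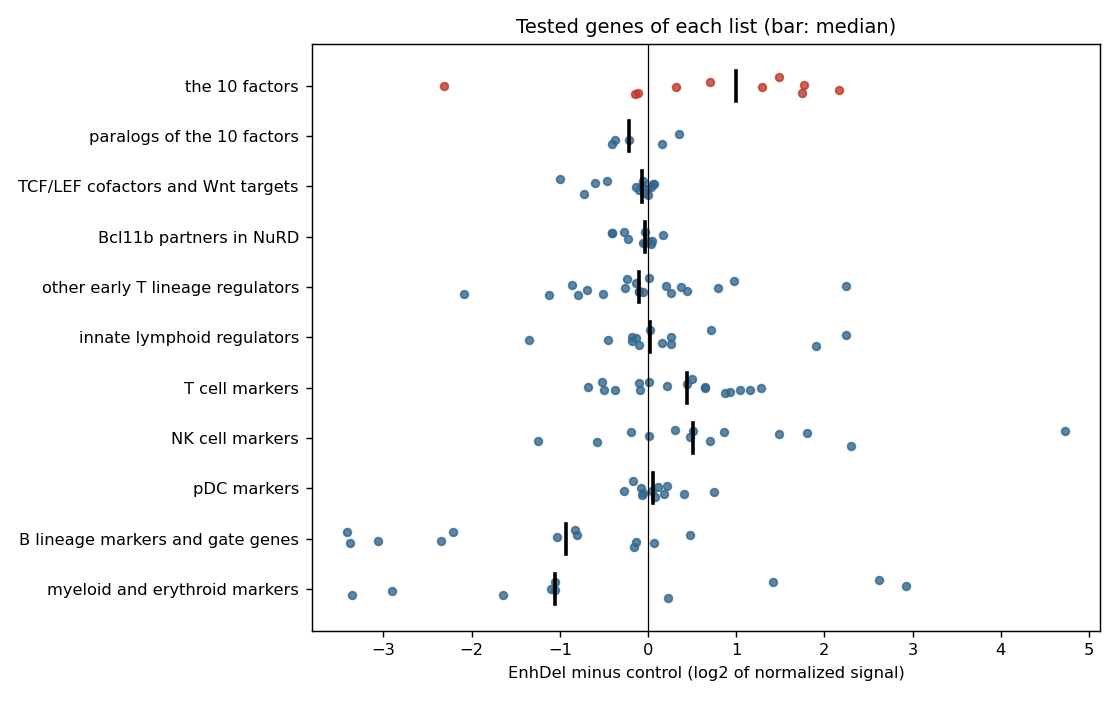
Log2 difference (EnhDel minus control, x axis) of each tested gene in the 10 factors (red) and in the other gene lists (blue), with a bar at each list's median. The factors' median lies at 0.996 and those of T and NK cell markers at 0.44 and 0.51, while B lineage genes lie at -0.93 and the cofactor lists near 0.

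The genes whose centred values over the 4 arrays lay nearest to those of Tcf7, by Euclidean distance on the log2 scale among 19391 genes, were Lingo4 (0.27), Gata1 (0.35) and Asns (0.35). Gata1, the erythroid and megakaryocyte factor, read 26.6 and 41.4 in the controls, against 199.2 and 89.2 in the EnhDel samples, highest on EnhDel replicate 1 as Tcf7 was. Nearest to Bcl11b were Tnk2os (0.12), Dyrk4 (0.14) and Pde10a (0.15). Dyrk4 read 46.5 and 47.1 in the controls, against 165.6 and 124.2 in the EnhDel samples. Lingo4, Tnk2os and Pde10a were well above background on neither control array, so their distances and ranks rest on control values that were not measured. Gata1, Asns and Dyrk4 were well above background on all 4 arrays. With 4 arrays many genes can share such a pattern, and these distances are a description.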

How the data were processed

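RNA of 4 sorted preproB samples was measured on 1-colour Agilent arrays. The authors' deposited scanner files give each spot's intensity, with a background-corrected processed signal and quality flags from Agilent Feature Extraction (version 10.7.3.1), per the file headers. The authors also deposited a table on a log2 scale (31597 rows, median 6.5 on each array), whose normalization is not given in the sources used here. The RNA was amplified linearly, per the labels' protocols.

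Control and flagged spots were left out, and log2 of the processed signal, less the 75th percentile of its array, was averaged per probe. Genes took their brightest tested probe. Names came from the RefSeq table by accession (26581 probes matched) or from the files. Testing required a signal well above background in both samples of either group, a filter passed by 19391 genes and 24278 probes. Groups were compared with lmFit and eBayes of limma 3.58.1 (R 4.3.3), with Benjamini-Hochberg adjustment, and 0% of probes passed 0.05 when each was tested alone. With 2 samples against 2, an exact permutation test cannot give a two-sided p below 0.333. The fit was tested on simulated data. Printed fold bounds set the dim group at its lowest signal well above background.

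The 10 factors and the gene lists were chosen with earlier results of these data known. The genes named were all 10 factors, Cebpa, up to 4 tested genes of each other list by smallest unadjusted p, and the 3 nearest genes by pattern for Tcf7 and Bcl11b. Axin2, Cd24a, Ptprc, Spn, Enpep, Pax5, Ncr1, Klrd1 and Cd244a were added as checks or after their values were seen. So were Cd6, Thy1, Lck, Cd3e, Cd247, Nkg7, Ccl5, the NK genes on no array and the sex-linked genes. Some genes that this rule takes are not reported here. Probe positions are those of the files (mm9); exon and UTR annotation of that build was not used here. Alternatives were background correction by normexp (offset 50, with and without repair of 6 spots on EnhDel replicate 1), quantile, median and cyclic loess scaling, other filters, the mean of probes, a replicate block, each array left out, another variance model and the deposited values.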

Additional observations from a re-analysis of the deposited data

How the results depend on the processing

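The direction of Tcf7, Bcl11b, Tox, Zbtb16, Tbx21, Eomes, Lef1 and Satb1 held under the 15 other settings. Several of these could not change it. The other filters, the replicate block and the other variance model kept the same probes and group means for these factors. Where the groups did not overlap, leaving out a single array could not turn the sign either. When each array was left out, Tox2 ranged from -0.0439 (without EnhDel replicate 2) to 0.672, and Zbtb7b from -0.444 to 0.215 (without EnhDel replicate 1), with 0.0624 without control replicate 1. The cause of these turns was not tested. The factors' median of 0.996 moved to 1.31 after normexp, 0.505 after normexp with repaired background, 0.3 with the authors' deposited values and 0.735 after cyclic loess, and ranged from 0.735 to 1.22 when each array was left out in turn. The count of factors past limma's adjusted p of 0.05 ranged from 0 to 4 when each array was left out and was 0 under the other settings. Over all genes this count was 23 with median scaling and ranged from 0 to 3209 when each array was left out; it was 0 in the main fit, where 1324 higher and 807 lower genes had an unadjusted p under 0.05. The median of all genes was -0.135 with median scaling and 0.188 after unrepaired normexp, against 0.06. With the replicate number as a block, 0 genes passed, and the factors' median was 0.996, which a balanced block cannot change. Same-numbered samples did not deviate together (correlation over 19391 genes -0.0236). A single difference within each group cannot decide whether the numbers pair the samples.

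With 2 arrays per group and the lowest measurable signal at 12.2 to 14.4, the dim probes of Tcf7, Bcl11b and Eomes give bounds or no fold. After repaired normexp, which also adds an offset, the differences of Tcf7 (1.27), Bcl11b (0.647), Eomes (0.694), Tox (1.04), Zbtb16 (0.928), Tbx21 (0.363) and Tox2 (0.147) were smaller by over 1.5 times. Which step of that setting or of the deposited values made them smaller was not tested.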
